A study of Mus musculus with 18 samples.

Results

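Imprinted genes were followed through a myoblast differentiation experiment: the non-coding RNA H19 and its neighbour Igf2, the Dlk1, Meg3, Rian and Mirg genes of one chromosome 12 domain, and Peg3, Grb10, Igf2r and Mest. The 10 genes were named as a list and found by symbol among the 35275 genes of the deposited table, where all 10 had a row. The list was chosen from imprinted genes with their levels in these libraries and their differences between the groups already known, so their levels and differences are given as description and without p-values. The cells were C2C12, a mouse myoblast line described in the labels as Pax7 negative, as wild-type controls or as lines overexpressing the spliced or the genomic form of MUNC, a long non-coding RNA transcribed upstream of Myod1 that is known to promote myogenesis. Each of the 3 lines was sampled in growth medium with 20% fetal bovine serum (GM) and after 3 days in differentiation medium with 2% horse serum (DM3), with 3 biological replicates per group and 18 libraries of polyadenylated RNA in all. The control is labelled wild-type, and whether it carries an empty vector, and whether each overexpressing line is a clone or a pool, is not given in the sources used here. The level of MUNC itself was not analysed here. Each form was sampled in a single line, so an effect of MUNC cannot be told apart from other differences between the lines. Values are fragments per 1000000 (FPM), which are not corrected for gene length and so compare one gene across libraries. Where genes are compared with each other, FPM per kilobase of exon is used. A gene is said to be called where its limma p, adjusted over the 13869 genes that passed a filter on low values, was under 0.05.

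An imprinted gene is expressed mainly from the copy inherited from 1 parent, because a methylated control region marks the maternal and paternal chromosomes differently. H19 and Igf2 share enhancers and a control region bound by the insulator protein CTCF, with H19 read from the maternal and Igf2 from the paternal copy. In muscle, Igf2 is a secreted growth factor made by differentiating myoblasts that acts through the Igf1 receptor, H19 is an abundant non-coding RNA that is also the precursor of miR-675, and Igf2r removes Igf2 from the cell surface. Total RNA levels do not separate the maternal from the paternal copy, so nothing below is a measure of imprinting itself.

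Of the 10 genes, 6 contain microRNA genes in the RefSeq annotation of GRCm38.p6: H19, Igf2 and Mest hold 1 each, Meg3 holds 2, Rian holds 3 and Mirg holds 14. The sequences below are shown because they are the products by which several of these transcripts are best known, and each is written 5′ to 3′ with its seed, bases 2 to 8, in capitals. The first pair comes from H19 and the next pair from Igf2, then 1 pair from Mest and 1 microRNA each from Meg3, Rian and Mirg.
miR-675-5p: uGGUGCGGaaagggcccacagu
miR-675-3p: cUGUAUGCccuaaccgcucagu
miR-483-5p: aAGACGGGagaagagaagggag
miR-483-3p: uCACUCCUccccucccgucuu
miR-335-5p: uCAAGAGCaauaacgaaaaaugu
miR-335-3p: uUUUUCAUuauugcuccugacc
miR-770-5p: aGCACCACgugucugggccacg
miR-370-3p: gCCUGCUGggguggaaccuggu
miR-410-3p: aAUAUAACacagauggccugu
No 2 of the 9 share a seed. Libraries of polyadenylated RNA count the host transcripts and not the mature microRNAs, so the levels that follow are those of the hosts.

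Depth ran from 38416702 to 68788327 reads counted in genes per library, and log2 profiles correlated at 0.980 to 0.996 within a group and 0.868 to 0.975 between groups. The source name and the tissue label disagreed on myoblast or myotube for 9 samples, and the groups follow the titles. Of the defining myoblast markers, Myod1 averaged 0.0285 FPM in control GM and 0.0993 in control DM3. In GM and DM3 it averaged 12.4 and 28.6 in the spliced line and 3.84 and 18.4 in the genomic line. Myf5 averaged 71.8 and 103 FPM in the controls, 58.7 and 108 in the spliced line and 26.7 and 29.4 in the genomic line. Pax7 was at most 0.147 FPM in any library and Pax3 had no read in 3 of the 6 groups. The summed level of 10 myotube markers was 13.2 to 32.5 FPM in control GM and 10.9 to 18.3 in control DM3. It was 189.6 to 1009 FPM in the differentiated spliced line and 67.7 to 129.6 in the differentiated genomic line. Of the 9 that passed the filter, 2 were called higher, 1 lower and 6 not in control DM3 against GM. The share of all genes called there was 58.2%. The summed markers were not higher in control DM3, so differentiation of the controls below names the change of medium. The 10 markers of fibroblasts and mesenchymal cells summed to 3304 to 15041 FPM, with Tcf21 at 0 in all groups, and their lowest sum in the differentiated spliced line, 14182, was above the highest in control DM3, 9564. Of the 8 that passed the filter, 2 were called higher there, 1 lower and 5 not, beside 43.3% of all genes called. Such a sum is carried by its most abundant genes. The 5 adipocyte markers summed to 6.29 to 22.8 FPM, and Adipoq, the defining one, was at 0 in all groups but spliced GM. The 6 neuronal and Schwann cell markers summed to 333 to 636 FPM in control GM and to 9.87 to 180.3 elsewhere, with Sox10 at 0 in all DM3 groups. How far such cells or states take part in any result below was not tested. In bulk RNA, fewer cells of a type and less RNA per cell cannot be told apart.

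H19 was among the most abundant transcripts of cells in DM3 and was highest in the spliced line. In control GM the 3 libraries held 426, 440.3 and 109 FPM, and in control DM3 they held 527, 1124 and 1657. The spliced line held 1478, 1816 and 1182 FPM in GM and 4892, 3745 and 2640.2 in DM3. The genomic line held 218, 398 and 85.4 FPM in GM and 1680.3, 2152 and 1356 in DM3. In each line all DM3 libraries were above all GM libraries, and in both media all spliced libraries were above all control libraries, whereas the genomic line overlapped the controls. Per kilobase of exon, H19 ranked 5 among 34490 genes in the differentiated spliced line and 15 in the differentiated genomic line, against 47 in control DM3 and 314 in control GM. The gene lies at chr7:142575529-142578143 on the minus strand of mm10, a non-coding gene with 2.46 kb of exon.

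From GM to DM3 the mean of H19 was 3.39-fold higher in the controls, 2.52-fold higher in the spliced line and 7.39-fold higher in the genomic line. On the scale of log2(FPM + 1) these differences were 1.86 (SE 0.55), 1.31 (SE 0.55) and 3.11 (SE 0.55). The control difference rests partly on replicate 3 of control GM, which held 109 FPM: without it the difference was 1.20, and it was 1.49 without replicate 3 of control DM3. Against the controls, the spliced line was 4.59-fold higher in GM and 3.41-fold higher in DM3, and the genomic line's mean was 0.720 times the control mean in GM and 1.57 times in DM3. The spliced line was 6.38-fold above the genomic line in GM and 2.17-fold above it in DM3. Replicate 2 of genomic GM was the highest of its group, and without it the genomic line was 11.4-fold higher in DM3, 0.467 times the control in GM and 9.83-fold below the spliced line in GM. Replicate 3, at 85.4 FPM, was the lowest of that group, and leaving it out instead makes each of these differences smaller than with all libraries. Ordered by mean, the groups ran from genomic GM and control GM, which overlapped, through control DM3, spliced GM and genomic DM3, where each neighbour overlapped the next, to spliced DM3, whose libraries lay above all others.

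Igf2 was close to the limit of detection in controls in GM and was highest in the differentiated spliced line. Control GM libraries held 0.188, 0.106 and 0.154 FPM and control DM3 libraries 0.730, 0.967 and 2.28. The spliced line held 3.63, 6.71 and 3.64 FPM in GM and 299, 95.2 and 104 in DM3. The genomic line held 0.10, 0.135 and 0.0210 FPM in GM and 3.21, 12.5 and 2.34 in DM3. The differentiated spliced libraries lay above all others without overlap, and replicate 1 of that group was the highest both in Igf2 and in myotube markers, whose sums were 1009, 189.6 and 240.3 FPM in replicates 1, 2 and 3. In the differentiated genomic line replicate 2 was the highest in both. The part of the myotube markers in the level of Igf2 was not tested.

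The mean of Igf2 in the spliced line was 31.2-fold above the control in GM and 125-fold above it in DM3, and in DM3 it was 27.6-fold above the genomic line. From GM to DM3 it was 35.6-fold higher in the spliced line and 8.89-fold higher in the controls, from a level of a few reads per library in control GM. Without replicate 1 of spliced DM3 these folds were 74.97 against the control in DM3, 16.5 against the genomic line and 21.3 between the media. Without replicate 3 of control DM3, the highest of its group, the fold over the control in DM3 was 196 and that between the media in the controls 5.68. Leaving out replicate 2 of genomic DM3 took the fold of the spliced over the genomic line to 59.9. As log2(FPM + 1) the spliced line differed from the control by 2.26 (SE 0.46) in GM and 6.02 (SE 0.46) in DM3, and the pseudocount of 1 FPM compresses these values for a gene this low. The authors' deposited table, a DESeq2 analysis of counts, lists log2 fold changes of 4.96 with a standard error of 0.43 in GM and 6.97 with 0.72 in DM3 for the same contrasts. The difference between the spliced line's and the control's change on differentiation was 3.76 (SE 0.64) on the log2(FPM + 1) scale, and a smaller 2.07 by edgeR and 2.02 by DESeq2 on the recovered reads. The genomic line's excess over the control in DM3, 4.53-fold, leaned on replicate 2: without it the fold was 2.09 and the log2 difference 0.75 in place of 1.36. It was 7.09-fold without replicate 3 of control DM3. Igf2 lies at chr7:142650766-142666816 on the minus strand, 72.6 kb from H19, and 64.5% of its exon bases are shared with the annotated genes Gm49394, on the same strand, and Igf2os, on the opposite one, so reads of the 3 cannot be fully told apart. Whether the counting used strand is not given in the sources used here.

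**Figure D1:**
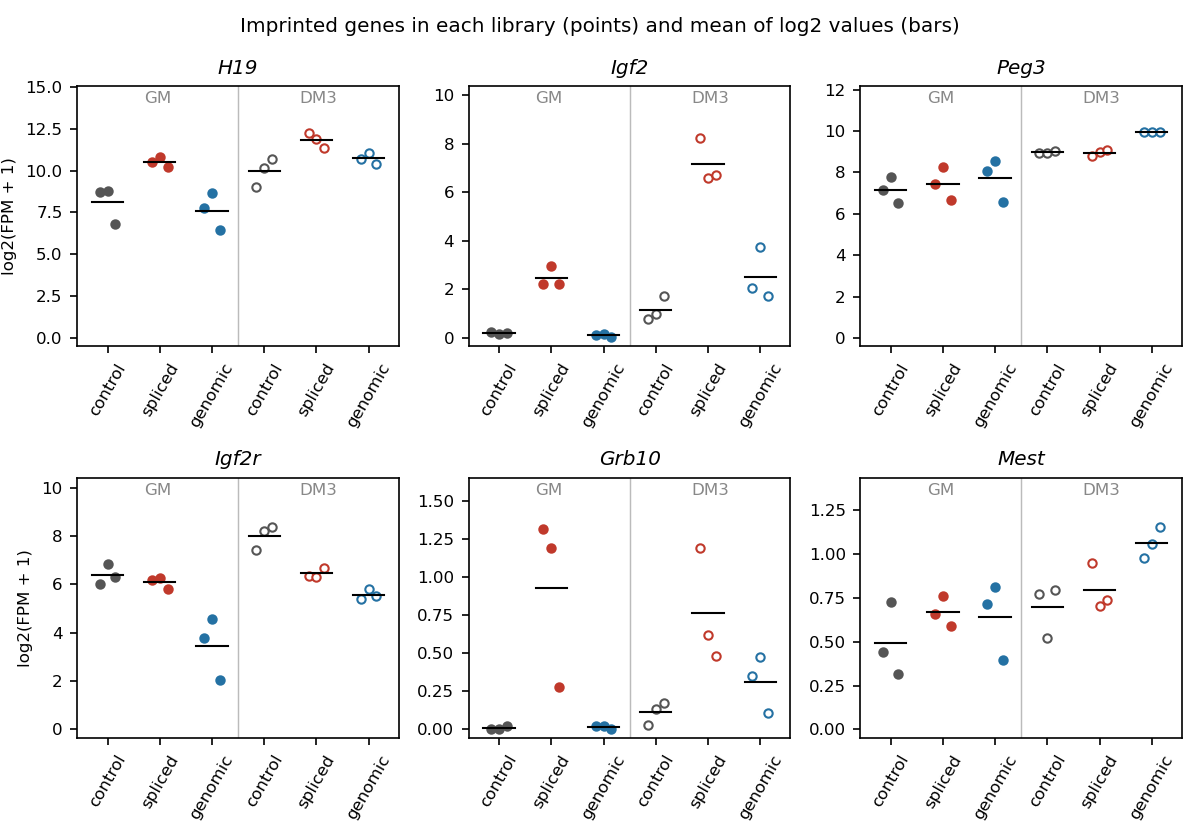
Level of 6 imprinted genes in each of 18 libraries, as log2(FPM + 1) on the vertical axis, with 1 point per library in replicate order, a bar at the group mean of the log2 values, filled points for growth medium and open points for 3 days of differentiation. The vertical axes differ between panels: H19 and Igf2 are highest in the differentiated spliced line, Peg3 in the differentiated genomic line, and Igf2r is lowest in the genomic line.

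The promoter of Igf2 with the most CpG dinucleotides among its 4 RefSeq windows is shown because Igf2 and the myogenic genes were high in the same libraries. The myogenic factors of the MyoD family bind E-boxes, CANNTG, which read the same on both strands. The window covers 250 bases before to 50 after an annotated start, at chr7:142658755-142659054 (GRCm38.p6, minus strand), with the E-box in capitals.
Igf2 promoter window: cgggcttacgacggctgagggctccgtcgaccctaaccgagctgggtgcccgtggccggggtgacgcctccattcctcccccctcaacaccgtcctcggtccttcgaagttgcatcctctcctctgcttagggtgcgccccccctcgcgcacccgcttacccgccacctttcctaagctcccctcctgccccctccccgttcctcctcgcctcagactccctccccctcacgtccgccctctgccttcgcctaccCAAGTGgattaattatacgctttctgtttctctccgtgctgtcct
It holds 24 CpG and 1 E-box. Of 32851 windows of the same length, 72.3% held at least 1 E-box, and 10 of the 16 windows found for 9 of the members did, so the match is a description of the sequence only. No window was found for H19.

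The genes whose levels ran most like Igf2 over the 18 libraries, among 10374 candidates averaging at least 5 FPM, were led by muscle genes: Tmem8c (now Mymk, a fusion protein of the myoblast membrane) with a Pearson r of 0.970, Myog (a myogenic transcription factor) with 0.954, Myh3 (embryonic myosin heavy chain) with 0.944, Pard3 (a polarity protein) with 0.943 and Ttn (titin, the sarcomere's molecular spring) with 0.942. For H19 they were Cd82 (a tetraspanin) with 0.978, Nid2 (a basement membrane protein) with 0.949, Eri3 with 0.936, Osbpl9 with 0.931 and Dync2li1 with 0.927. These are correlations of log2(FPM + 1) over libraries of 6 groups that share a cell line and, within each medium, culture conditions, and they are given as description. None of the 10 lies on chromosome 7. Meg3 had no read and so no such list.

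**Figure D2:**
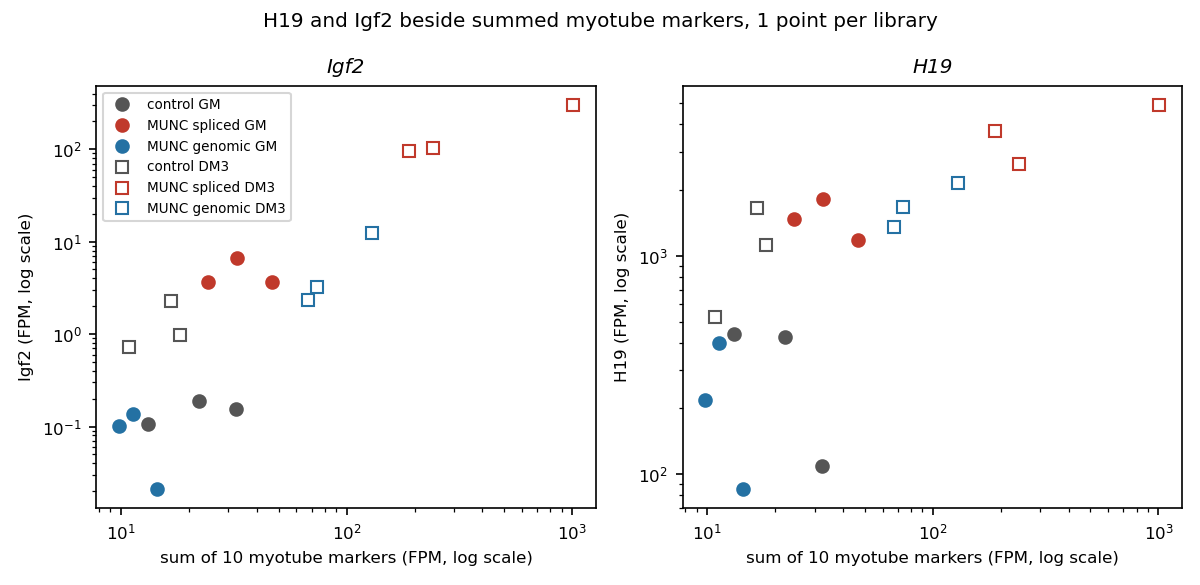
Igf2 (left) and H19 (right) in FPM against the summed FPM of 10 myotube markers, both on log axes, with 1 point per library, circles for growth medium and squares for differentiation medium. The 3 differentiated spliced libraries lie at the upper right of both panels, and the libraries of control GM and genomic GM spread over a wide range of H19 at sums of 9.83 to 32.5 FPM.

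Within 250 kb of H19 and Igf2, a window chosen after the members' values were seen, some neighbours were, like H19 and Igf2, highest in spliced DM3 and others were not. Tnnt3, fast skeletal troponin T, lies 59.5 kb from H19 and averaged 0.370, 4.15 and 1.47 FPM in GM and 6.14, 50.1 and 20.2 in DM3, in the order control, spliced and genomic. Mrpl23, a mitochondrial ribosomal protein gene only 34.8 kb from H19, averaged between 6.46 and 8.22 FPM in all 6 groups. Ctsd, the lysosomal protease cathepsin D, averaged 368, 463 and 328 FPM in GM and 875, 768 and 764 in DM3, so it was higher in DM3 in each line and did not follow the lines as H19 did. Nctc1, a non-coding gene 16.9 kb from H19, had 20 reads in all 18 libraries together.

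The chromosome 12 domain was silent or nearly so in every condition. Dlk1, which encodes a membrane-bound Notch-like protein, and Meg3, a maternally expressed non-coding RNA, had 0 reads in all 18 libraries. A count of 0 allows up to 3 reads, which was 0.0429 to 0.0757 FPM depending on the library. Rian, the host of small nucleolar RNAs, had 12 reads in 6 libraries with at most 4 in one, and Mirg, the microRNA host, had 3 reads in 3 libraries. From Dlk1 to Dio3, at chr12:109452823-110281097, 9 listed genes shared 17 reads out of 989862073 in all libraries, and 6 of the 9 had none. No gene of this domain passed the filter, and no group stood apart from another.

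Peg3, a paternally expressed zinc finger gene at chr7:6703892-6730431 on the minus strand, was higher in DM3 in each line and highest in the differentiated genomic line. Control libraries held 143, 219.9 and 89.8 FPM in GM and 483, 497 and 532 in DM3. The spliced line held 175, 306 and 102 FPM in GM and 438, 499 and 545 in DM3. The genomic line held 265, 378 and 95.0 FPM in GM and 1006, 983 and 995 in DM3. The DM3 libraries of a line were all above its GM libraries, and those of the differentiated genomic line were above all others and close to each other. The mean was 3.34-fold higher in DM3 in the controls, 2.55-fold in the spliced line and 4.04-fold in the genomic line, with log2 differences of 1.82 (SE 0.42), 1.48 (SE 0.42) and 2.22 (SE 0.42). In DM3 the genomic line was 1.97-fold above the control and 2.01-fold above the spliced line. The difference from the control was 0.98 (SE 0.42) on the log2 scale. Across the members and groups in GM, replicate 3 was the lowest of its group in 14 of 18 cases among the 6 genes above the filter, against 5 of 18 in DM3, so the GM means of these genes include a low replicate more often than not.

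Zim1, a maternally expressed zinc finger gene of the Peg3 domain 7.44 kb away and not itself 1 of the 10, changed between the lines and the control. Control libraries held 0.529, 1.36 and 0.492 FPM in GM and 0.461, 0.355 and 0.939 in DM3. The spliced line held 5.35, 10.1 and 3.48 FPM in GM and 24.1, 30.0 and 53.1 in DM3, and the genomic line 2.08, 2.06 and 0.378 and 16.1, 15.9 and 14.5. Against the controls it rose in the spliced line by 1.96 (SE 0.35) in GM (limma adjusted p = 5.0e-04) and 4.47 (SE 0.35) in DM3 (limma adjusted p = 6.2e-08) on the log2 scale. In the differentiated genomic line it rose by 3.39 (SE 0.35, limma adjusted p = 1.0e-06). For the same contrasts Peg3 differed by 0.31 and -0.03 in the spliced line and 0.98 in the differentiated genomic line.

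Igf2r (chr17:12682406-12769664, minus strand) and H19 differed in opposite directions between the spliced line and the control in DM3, and in each medium Igf2r was lowest in the genomic line. Control libraries held 63.2, 114 and 77.9 FPM of Igf2r in GM and 169, 296 and 329 in DM3. The spliced line held 72.1, 76.2 and 54.5 FPM in GM and 81.2, 78.4 and 102 in DM3. The genomic line held 12.9, 22.4 and 3.13 FPM in GM and 40.7, 54.8 and 44.8 in DM3. Genomic libraries were below all control libraries in both media, and the spliced line overlapped the control in GM and lay below it in DM3. The mean of the genomic line was 6.64-fold lower than the control's in GM and 5.66-fold lower in DM3, and that of the spliced line was 3.04-fold lower in DM3. The log2 differences were -2.92 (SE 0.43), -2.43 (SE 0.43) and -1.54 (SE 0.43). From GM to DM3 the mean was 3.11-fold higher in the controls, 3.64-fold in the genomic line and 1.29-fold in the spliced line. The genomic line's difference between media was 2.10 and was 1.39 without replicate 3 of genomic GM, which held 3.13 FPM. Without replicate 2 of genomic GM, the highest of its group, the mean was 5.82-fold higher in DM3 and 10.6-fold below the control in GM.

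Igf2r is read from the maternal copy in most mouse tissues, and Airn, the non-coding RNA that starts inside Igf2r and runs antisense to it, is known to silence the paternal copy. Airn libraries held 2.19, 4.34 and 3.00 FPM in control GM and 7.82, 14.4 and 13.5 in control DM3, 5.93, 8.52 and 6.46 and 10.04, 9.79 and 17.0 in the spliced line, and 0.558, 1.54 and 0.651 and 4.73, 5.20 and 5.07 in the genomic line. Airn in the genomic line fell by 1.13 (SE 0.26) in GM (limma adjusted p = 0.0040) and fell by 1.06 (SE 0.26) in DM3 (limma adjusted p = 0.0037) on the log2 scale against the control. It rose with differentiation in the controls by 1.62 (SE 0.26, limma adjusted p = 6.5e-05) and in the genomic line by 1.68 (SE 0.26, limma adjusted p = 6.4e-05). In the spliced line it rose by 0.71 (SE 0.26, limma adjusted p = 0.043), a call lost in 8 of 14 alternatives, among them without replicate 1 or 3 of spliced GM or replicate 3 of spliced DM3, where the difference was 0.47. In spliced GM it was 0.95 (SE 0.26) above the control (limma adjusted p = 0.0096), a call lost under quantile normalization and without replicate 1 of control GM, where the difference was 0.77. The 2 genes overlap in position, but 0% of the exon bases of Igf2r are shared with another annotated gene. The counting's use of strand is not given in the sources used here. Part of the reads of Igf2r or Airn may therefore have been counted for the other. The Igf2r promoter lies at chr17:12769657-12769956 (GRCm38.p6, minus strand) and is shown, with E-boxes in capitals, because the gene differed between the lines.
Igf2r promoter window: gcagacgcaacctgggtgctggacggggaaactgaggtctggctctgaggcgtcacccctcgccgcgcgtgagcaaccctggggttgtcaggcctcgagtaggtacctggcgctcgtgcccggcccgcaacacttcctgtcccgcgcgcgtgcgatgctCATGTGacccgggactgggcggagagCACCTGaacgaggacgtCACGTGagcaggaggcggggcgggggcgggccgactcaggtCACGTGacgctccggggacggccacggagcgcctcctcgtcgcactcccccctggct
It holds 34 CpG and 4 E-boxes. Windows with 3 or more made up 17.6% of all windows.

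Grb10 and Mest were low throughout. Grb10, at chr11:11930508-12038683 on the minus strand, encodes an adaptor that restrains insulin and Igf1 receptor signalling. Its libraries held 0, 0 and 0.0154 FPM in control GM, 0.0192, 0.0986 and 0.129 in control DM3, 1.49, 1.28 and 0.216 in spliced GM and 1.29, 0.540 and 0.398 in spliced DM3. The genomic line held 0.0143, 0.0169 and 0 FPM in GM and 0.277, 0.392 and 0.0781 in DM3. The spliced line was above the control in both media without overlap, and in GM its mean was at least 18.8-fold higher than the level of 3 reads per control library. Replicate 3 of spliced GM was far below the other two. Its neighbour Cobl, an actin nucleator 198 kb away, averaged 3.09 FPM in spliced GM and 3.86 in spliced DM3, and at most 0.112 in the other groups.

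Mest, a paternally expressed hydrolase-like gene at chr6:30723547-30748465 on the plus strand, held 0.358, 0.655 and 0.246 FPM in control GM and 0.711, 0.434 and 0.737 in control DM3, 0.580, 0.697 and 0.505 and 0.930, 0.627 and 0.669 in the spliced line, and 0.644, 0.760 and 0.315 and 0.970, 1.08 and 1.23 in the genomic line. The differentiated genomic libraries were the highest without overlap, 1.75-fold above the control mean, and all other neighbours in the order of the groups overlapped. Copg2, an antisense neighbour that overlaps 23.1% of the exon bases of Mest, averaged 64.9 to 113 FPM, and reads of the 2 genes cannot be told apart where the counting did not use strand.

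**Figure D3:**
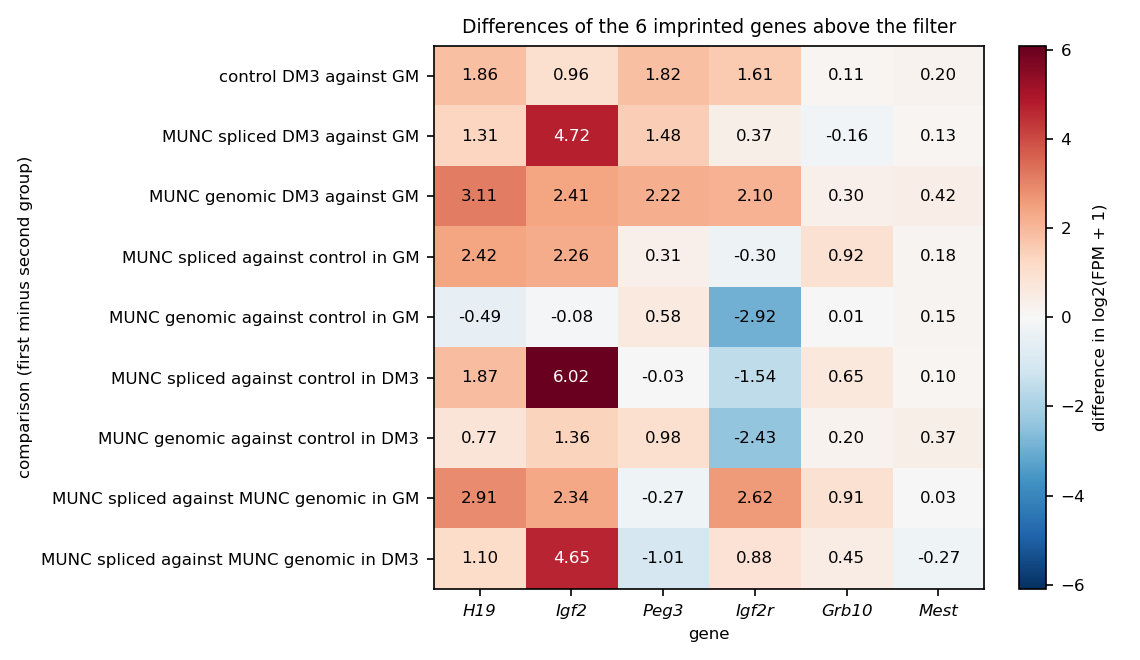
Difference in log2(FPM + 1) between the group means, first group minus second, for the 6 members above the filter (columns) in 9 comparisons (rows), with red for higher and blue for lower. The standard error is the same in every row: 0.55 for H19, 0.46 for Igf2, 0.42 for Peg3, 0.43 for Igf2r, 0.21 for Grb10 and 0.13 for Mest.

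Of the members, 6 passed the filter of at least 0.5 FPM in at least 3 libraries. Grb10 passed it only through libraries of the spliced line, so its calls there are not independent of the filter. The counts below are set beside the share of all 13869 tested genes that were called and the share whose 2 groups did not overlap. Nothing is read from them, because the members were listed with these values known. From GM to DM3, 3 of the 6 were called in the controls (H19, Igf2r and Peg3, all higher) beside 58.2% of all genes, and 5 did not overlap beside 62.4%. Igf2 was also called higher there with a pseudocount of 0.1, with only the groups compared, by edgeR and by DESeq2. DESeq2 called Grb10 higher as well. In the spliced line's differentiation 2 were called (Igf2 and Peg3, both higher) beside 35.6%, and 4 did not overlap beside 44.6%. In the genomic line's 5 were called, all but Grb10 and all higher, beside 51.4%, and all 6 did not overlap beside 62.8%. In the alternatives that added Igf2 in the controls, Grb10 was called here too, and Mest was not called with quantile normalization or edgeR. Against the control in GM, 3 were called higher in the spliced line (H19, Igf2 and Grb10) beside 35.5%, the same number did not overlap beside 43.6%, and in the genomic line Igf2r alone was called and alone did not overlap, beside 26.8% and 37.9%. In DM3, 4 were called in the spliced line (H19, Igf2 and Grb10 higher, Igf2r lower) beside 43.3%, and 4 did not overlap beside 53.0%. For the genomic line 3 were called (Igf2 and Mest higher, Igf2r lower) beside 40.3%, and 4 did not overlap beside 56.9%. Here Mest was not called with a pseudocount of 0.1, by edgeR or by DESeq2. Igf2 was not called without the filter or with only the groups compared. Peg3 was called as well with only the groups compared and by DESeq2. Between the lines 4 were called in GM, all higher in the spliced line, beside 35.8%, and 4 did not overlap beside 45.7%. In DM3 Igf2 alone was called between the lines beside 44.2%, and all 6 did not overlap beside 57.2%. With the replicate number as a block, Peg3 was added in the differentiated genomic line against the control. In the tests of a difference in the response to differentiation, limma called Igf2 alone in the spliced line, beside 14.4% of all genes. There edgeR and DESeq2 called 0 of the 6. In the genomic line 0 were called by limma, edgeR or DESeq2, beside 8.81%. The calls that were lost when 1 library was left out were H19 and Grb10 in the differentiated spliced line against the control (1.42 and 0.61 without replicate 1 of control DM3, and 0.44 for Grb10 without replicate 1 of spliced DM3), H19 in the controls' differentiation, Peg3 in the spliced line's (1.09 without replicate 3 of spliced GM), Igf2 and Mest in the differentiated genomic line against the control and Mest in the genomic line's differentiation.

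A wider list of 65 genes reported as imprinted in the mouse gave 60 with a row in the table. Of these, 6 had no read and 37 passed the filter. Whether each is imprinted in these cells was not tested. Their calls ran in both directions in each comparison between groups. The 37 include Plagl1, Asb4 and Ddc, which passed the filter only through libraries of the line where they were high. Their calls in that line are counted below but are not independent of the filter. In the controls' differentiation 20 of the 37 were called, 10 higher and 10 lower, where 29.6% of all tested genes rose and 28.6% fell. The list's median difference there was 0.02 and that of all genes 0.02 on the log2 scale. In the spliced line's differentiation 6 rose and 4 fell, beside 17.2% and 18.4% of all genes, and in the genomic line's 10 rose and 6 fell, beside 26.3% and 25.1%. Against the controls in GM, 5 rose and 7 fell in the spliced line, beside 18.2% and 17.3%, and 4 rose and 8 fell in the genomic line, beside 12.2% and 14.5%. Against the controls in DM3, 4 rose and 9 fell in the spliced line, beside 22.3% and 21.0%, with a median over the list of -0.11 against 0.01 over all genes. In the genomic line in DM3 8 rose and 9 fell, beside 19.3% and 20.9%. Between the lines, 11 were higher and 8 lower in the spliced line in GM, beside 19.9% and 16.0%, and 10 were higher and 11 lower in DM3, beside 23.4% and 20.8%. The response to differentiation differed from the control's for 5 genes in the spliced line (4 higher, 1 lower, beside 7.43% and 6.94%) and for 6 in the genomic line (3 and 3, beside 3.56% and 5.25%).

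**Figure D4:**
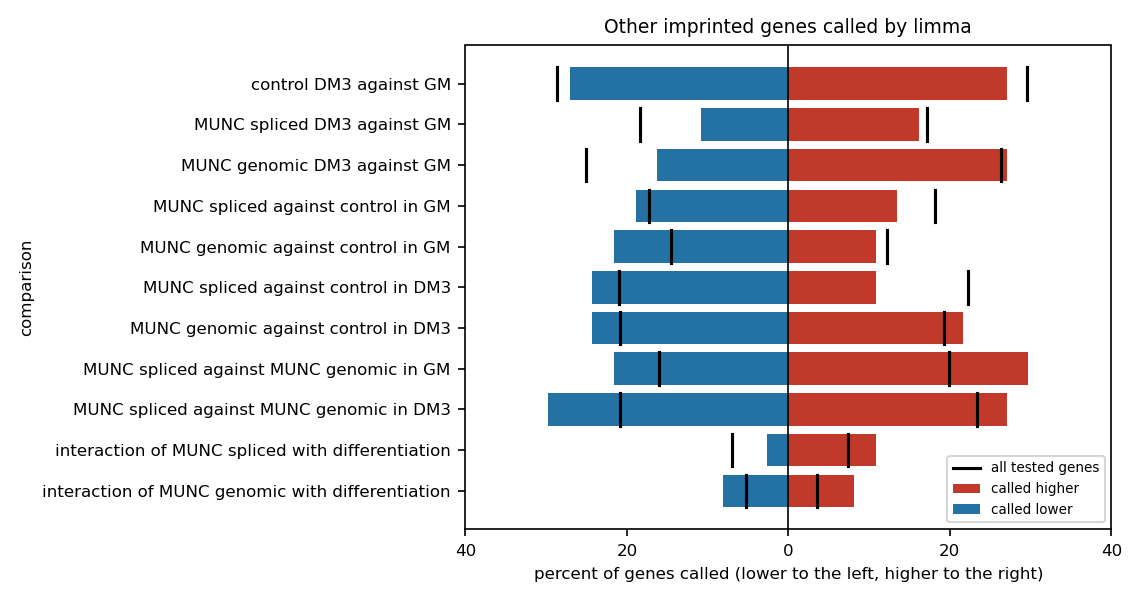
Percent of the 37 tested genes of the wider imprinted list called higher (red, right) or lower (blue, left) by limma in 11 comparisons, with black marks for the percent of all 13869 tested genes. In the controls' differentiation 10 genes lie on each side, and in the spliced line against control in DM3 4 were called higher and 9 lower. The 37 include Plagl1, Asb4 and Ddc, which passed the filter only through the line where they were high.

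Within this list, the largest falls in the spliced line against the control were those of Peg10 and Sgce in both media, adjoining paternally expressed genes of chromosome 6 that start close together. Peg10, a retrotransposon-derived gene, held 50.2, 39.0 and 36.3 FPM in control GM and 1.54, 0.532 and 0.631 in spliced GM, and 18.6, 9.29 and 11.1 and 1.33, 0.122 and 0.0904 in DM3. Sgce, epsilon-sarcoglycan of the dystrophin complex, held 43.1, 45.8 and 29.2 and 1.62, 0.862 and 0.757 FPM in GM and 63.5, 63.9 and 64.2 and 3.38, 1.03 and 1.08 in DM3. Peg10 fell by 4.52 (SE 0.29) in GM (limma adjusted p = 6.1e-09) and fell by 3.25 (SE 0.29) in DM3 (limma adjusted p = 2.4e-07) on the log2 scale. Sgce fell by 4.28 (SE 0.26, limma adjusted p = 2.6e-09) and fell by 4.62 (SE 0.26, limma adjusted p = 9.9e-10). In the genomic line Peg10 averaged 49.4 FPM in GM and 11.0 in DM3. Sgce was -0.91 (SE 0.26) from the control in genomic GM (limma adjusted p = 0.015), and this call was lost without replicate 1 or 2 of control GM, without replicate 3 of genomic GM, where the difference was -0.74, and with a pseudocount of 0.1.

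In the genomic line Pon3, Plagl1 and Asb4 rose and Impact fell. Pon3, a paraoxonase, held 4.39, 4.50 and 3.01 FPM in control GM and 41.3, 40.9 and 35.2 in genomic GM, and 13.5, 10.8 and 9.12 and 62.1, 61.5 and 56.3 in DM3. It rose by 3.03 (SE 0.19) in GM (limma adjusted p = 3.7e-09) and 2.34 (SE 0.19) in DM3 (limma adjusted p = 5.9e-08). Plagl1, a zinc finger growth suppressor, had 1, 0 and 1 reads in control GM and none in control DM3, and at most 5 in any spliced library. In the genomic line it held 8.56, 7.88 and 5.40 FPM in GM and 5.12, 5.14 and 6.21 in DM3, a rise of 3.01 (SE 0.12) and 2.69 (SE 0.12) on the log2(FPM + 1) scale. Plagl1 passed the filter on low values only through genomic libraries, so its rise is given as description and without a p-value. Asb4, a ubiquitin ligase adaptor near Pon3, averaged 1.81 FPM in genomic GM and 0.162 in control GM, and it too passed the filter only through genomic libraries. Impact, a translational regulator, fell by 1.06 (SE 0.20) in GM (limma adjusted p = 8.6e-04) and fell by 1.04 (SE 0.20) in DM3 (limma adjusted p = 5.8e-04). Sfmbt2, a Polycomb-group gene, fell by 1.56 (SE 0.16) in the differentiated genomic line (limma adjusted p = 6.7e-07).

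**Figure D5:**
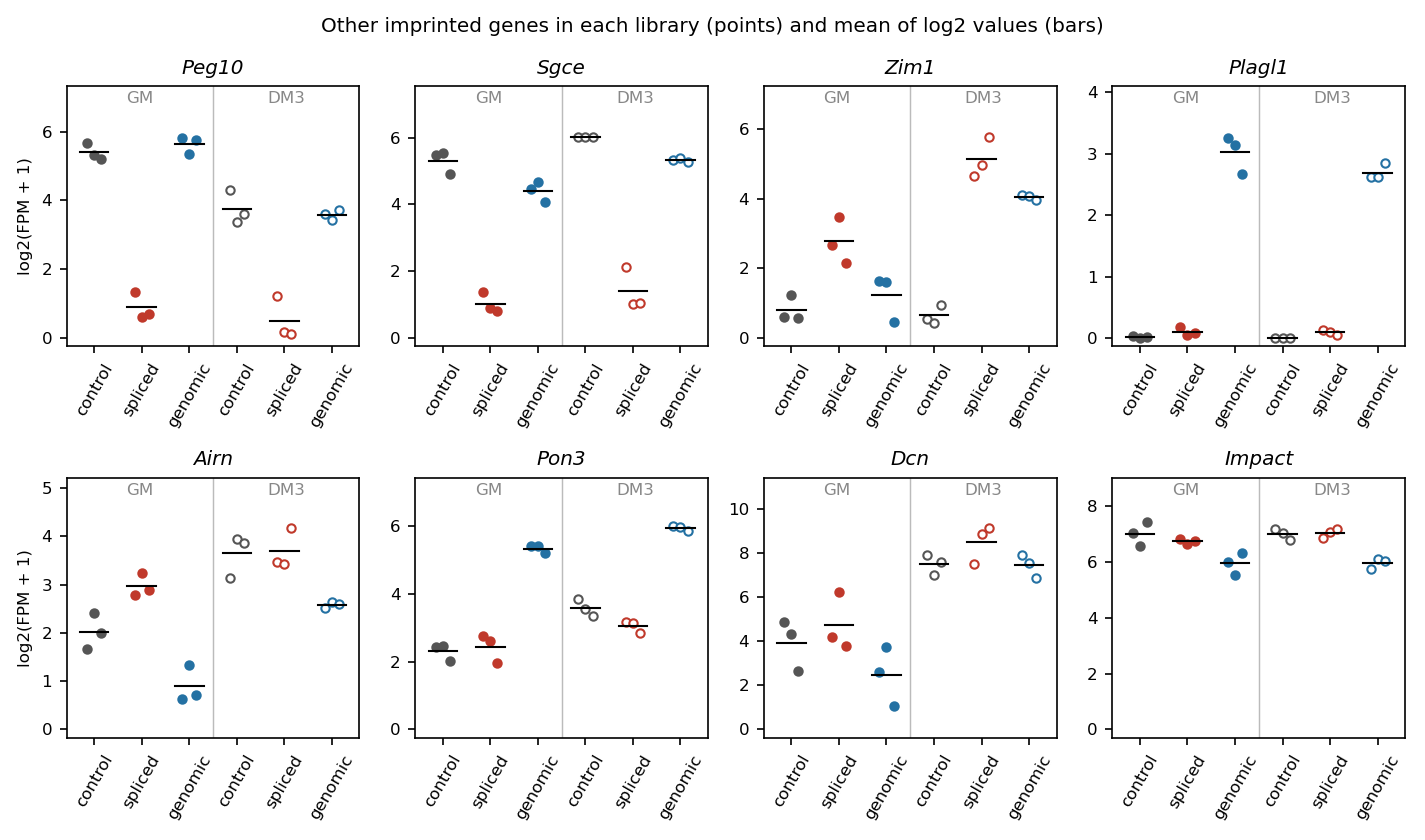
Level of 8 genes of the wider imprinted list in each library, as log2(FPM + 1), with 1 point per library. A bar marks the mean of the log2 values, with filled points for growth medium and open points for differentiation medium. Peg10 and Sgce are lower in the 6 spliced libraries than in all others, Plagl1 is above it in the 6 genomic libraries, and Dcn is higher in differentiation medium in each line.

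With differentiation, Dcn rose and Peg12 fell in all 3 lines. Dcn, decorin, a matrix proteoglycan, rose by 3.56 (SE 0.72) in the controls, 3.74 (SE 0.72) in the spliced line and 4.98 (SE 0.72) in the genomic line (limma adjusted p = 5.1e-04, 9.0e-04 and 3.4e-05), with means of 186, 396 and 181 FPM in DM3. Dcn is also a product of fibroblasts, whose 10 summed markers ran from 4043 to 6929 FPM in control GM and from 8562 to 9564 in control DM3. Their part in this change was not tested. Peg12 differed by -0.96 (SE 0.19) in the controls, -1.44 (SE 0.19) in the spliced line and -1.92 (SE 0.19) in the genomic line, lower in DM3 each time (limma adjusted p = 5.3e-04, 6.0e-05 and 1.8e-06). Pon2, a paraoxonase next to Pon3, fell by 1.01 (SE 0.14) in the controls (limma adjusted p = 1.1e-05) and differed by -0.88 (SE 0.14) between spliced GM and control GM (limma adjusted p = 1.2e-04). Tssc4 fell by 0.69 (SE 0.18) in the spliced line (limma adjusted p = 0.0065). Kcnq1ot1, the antisense RNA of another chromosome 7 domain, was -0.63 (SE 0.23) in the spliced line's differentiation (limma adjusted p = 0.044), a call lost in 9 of 14 alternatives. In spliced DM3, Tspan32 fell by 1.18 (SE 0.23, limma adjusted p = 6.3e-04) against the control. Mcts2, a retrogene copy of Mcts1 whose reads the counting could split, rose by 0.47 (SE 0.11, limma adjusted p = 0.0023). Ddc, an amine-synthesis enzyme, rose by 1.18 (SE 0.26), and it passed the filter only through spliced libraries, so its p-value is left out. Ddc adjoins Grb10, 32.4 kb away, and like it was highest in the spliced line, at 0.950 FPM in GM and 1.63 in DM3.

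Genes related to Igf2 were read from a list of 13, of which 12 passed the filter. They were Igf1, Igf1r, Insr, Irs1, Irs2, Igfbp2 to Igfbp6 and Igf2bp1 to Igf2bp3. In the controls' differentiation 7 rose and 0 fell by limma, against 1 that fell by edgeR and DESeq2 and 1 lower at an unadjusted p under 0.05. Those 7 are 58.3% of the list, beside 58.2% of all tested genes called. The list's median difference was 0.86, against 0.02 over all genes. Igfbp5, the muscle Igf binding protein, averaged 29.9 FPM in control GM and 268 in control DM3, a rise of 3.49 (SE 0.65, limma adjusted p = 2.6e-04), and 1329.7 and 2749.6 FPM in the differentiated spliced and genomic lines. In DM3, 5 were called in the spliced line against the control (3 higher, 2 lower) beside 43.3% of all genes, and 6 in the genomic line (4 higher, 2 lower) beside 40.3%. Igf1, the other ligand of the Igf1 receptor, averaged 52.2 FPM in spliced DM3 and 1.65 in control DM3, a rise of 4.50 (SE 0.51, limma adjusted p = 3.5e-06). Igfbp3 was found in the spliced line (8.98 FPM in GM and 7.83 in DM3) and Igfbp2 in the genomic line (67.4 and 18.9), each with at most 13 reads in any library of the other lines. Both were above the control in GM, Igfbp3 by 3.29 (SE 0.20) in the spliced line and Igfbp2 by 6.06 (SE 0.23) in the genomic line. Each passed the filter only through the line where it was found, so these differences are given without p-values. Both are among the 12 genes counted above, and their calls there are not independent of the filter.

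Genes that keep imprints through cell division were read from a list of 10, of which 9 passed the filter and Dppa3 had no read. In the controls' differentiation 5 fell and 3 rose, beside 28.6% and 29.6% of all genes, and the list's median difference was -0.72, against 0.02 over all genes. Uhrf1 and Dnmt1, which copy DNA methylation after replication, fell by 3.99 (SE 0.41, limma adjusted p = 1.1e-06) and fell by 1.79 (SE 0.19, limma adjusted p = 1.5e-06), and Ctcf, the insulator protein of the H19 control region, fell by 0.78 (SE 0.09, limma adjusted p = 2.9e-06). Between lines and control, 3 were called in the spliced line in DM3, beside 43.3% of all genes, where Ctcf was 0.50 (SE 0.09) above the control (limma adjusted p = 2.8e-04) and Zfp57, a zinc finger protein that protects methylated imprints, differed by -0.84 (SE 0.21, limma adjusted p = 0.0035). In the other 3 comparisons with the control 0 of the 9 passed by limma, beside 35.5% of all genes in spliced GM, 26.8% in genomic GM and 40.3% in genomic DM3. At an unadjusted p under 0.05 limma had 0 in spliced GM, 1 in genomic GM and 1 in genomic DM3, and DESeq2 called 0, 1 and 1 and edgeR 0 in each. With the replicate number as a block 1 was called in genomic GM and 1 in genomic DM3.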

How the data were processed

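RNA of 18 C2C12 libraries was sequenced, 3 per group. The submitters' processing notes name STAR, HTSeq, DESeq2 and the build mm10, without versions. The authors deposited fragments per 1000000, a signal in which gene counts are divided by size factors; each library's values were whole multiples of 1 read for 100% of values, within 0.05 read, and these reads (38416702 to 68788327 per library, 0.0143 to 0.0252 FPM each) were used for count tests as an alternative. The authors also deposited tables of log2 fold changes, with p-values and with test statistics, a score; only the log2 fold changes and standard errors of the members were copied. Genes were kept with at least 0.5 FPM in at least 3 libraries (13869 of 35275, 39.3%). log2(FPM + 1) was fitted with limma 3.58.1 in R 4.3.3, with 6 group means over all libraries, a trended prior and Benjamini-Hochberg adjustment over all tested genes at 0.05, and the fit was tested on simulated data. Alternatives were a pseudocount of 0.1, no filter, 2 rescalings, the replicate number as a block, only the groups compared, each library left out, edgeR 4.0.16 and DESeq2 1.42.0. Gene positions came from GENCODE M21 (GRCm38) and sequences from RefSeq (GRCm38.p6).

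The members and all gene lists were chosen with earlier results of these data known. Of the wider imprinted list, genes were named when they were among the 3 highest or 3 lowest log2 changes of a comparison, were called, had groups that did not overlap and averaged at least 1 FPM in the higher group, or were the highest or lowest called in a test of the difference in response. Any gene of the other 2 lists could be named. The 250 kb window around members was chosen after their values were seen. Same-numbered libraries deviated together, with correlations of 0.17 to 0.73, in 6 of 9 comparisons of 2 groups, which met the rule for a pairing; all counts given are still from the fit without the block, and the blocked fit is an alternative. In the spliced and genomic differentiation and in the comparison of the lines in DM3 the lowest correlation was 0.02, 0.05 and 0.09. Nothing in the labels says that replicates came from separate cultures beyond calling them biological, so p-values measure the spread between these libraries. Those p-values carry no spread between independently made lines. For low counts, 3 reads set the floor, which covers counting error only.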

Additional observations from a re-analysis of the deposited data

Results flagged for a closer look

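A difference in the response to differentiation between an overexpressing line and the control passed the test for Zim1 and Sfmbt2, named by the rule as the highest and lowest of the wider imprinted list. Zim1 rose more in both lines, by 2.52 in the spliced line (limma adjusted p = 0.0050, 2.20 to 2.98 over the alternatives) and 2.97 in the genomic line (limma adjusted p = 0.0012, 2.59 to 3.92) on the log2(FPM + 1) scale. It differed in all 3 differentiated libraries of each line, each above every library of the same line in GM. From GM to DM3 Sfmbt2 differed by 0.92 in the controls, 0.20 in the spliced line and -0.43 in the genomic line. Its response was lower than the controls' by a difference of -0.72 in the spliced line (limma adjusted p = 0.040) and -1.35 in the genomic line (limma adjusted p = 9.8e-04, -1.54 to -1.27 over the alternatives). The spliced value of Sfmbt2 lost its call in 12 of 20 alternatives, with adjusted p between 0.014 and 0.098. Groups of 3 libraries were not checked for outlying samples.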

How the results depend on the processing

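No called value of a member or named gene changed sign in any alternative. The count of other imprinted genes whose response differed in the spliced line was 5, and it was 3 with a pseudocount of 0.1, without a filter, with quantile normalization or with edgeR, 2 with only the groups compared, 10 with the replicate block and 2 to 6 with a library left out. For the same list the block moved the counts from 20 to 22 in the controls' differentiation, 10 to 13 in the spliced line's, 16 to 20 in the genomic line's, 12 to 15 and 12 to 18 in the spliced and the genomic line against the control in GM, 13 to 17 and 17 to 24 in DM3, 19 to 23 and 21 to 23 between the lines in GM and DM3, and 6 to 9 for the response of the genomic line. It also added the call of H19 in the spliced line's differentiation and of Peg3 between the lines in DM3. No other count of that list moved by more than 1.5 times under any alternative. Of 58 calls of named genes, 51 held in every alternative. The 58 include those of Plagl1, Asb4 and Ddc, which passed the filter only through the line where they were high. For these genes, holding in every alternative is no support. Between 2 groups, log2 differences of Igf2, Grb10 and Mest were often larger with a pseudocount of 0.1 and with the count tests, up to 7.37 for Grb10 in spliced GM with DESeq2. A pseudocount of 1 FPM compresses differences for genes this low, and any further part in these changes was not tested. Depth limits the chromosome 12 genes, Grb10 and Mest, where a library holds few reads.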
